A study of Schizosaccharomyces pombe with 12 samples.

Results

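The comparison was between 2 wild-type strains of the fission yeast Schizosaccharomyces pombe of opposite mating type, an h+ strain and an h- strain, each sequenced as 3 libraries, so that 6 of the 12 libraries of the study and all 7004 deposited genes were used. Both carried his3-D1, leu1-32 and ura4-D18. The h+ strain was the control of the bmc1 deletion and was made in the study, and the strain list gives its ade6 allele only as ade6-M210 or ade6-M216. The h- strain, with ade6-M216, was the control of the thc1 deletion and came from the laboratory stock. Cultures of 250 ml were grown at 32 °C in rich medium and harvested in log phase, and RNA was depleted of ribosomal RNA before stranded sequencing. The remaining libraries came from bmc1Δ, an h+ strain with the NatMX6 cassette in place of bmc1 that descends from a sporulated diploid, and thc1Δ, an h- strain made from the h- wild type by replacing thc1 with his3. Each mating type was thus represented by 1 wild-type strain, and mating type, ade6 allele, strain history and culture cannot be told apart in the contrast of the wild types. The study describes the h- wild type and thc1Δ samples as cultures in triplicate. For the h+ strains no source used here says whether each library was a culture of its own, so there the spread behind the p values may be technical.

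Fission yeast is haploid in growth, and its mating type is set by the cassette at the mat1 locus. P cells (h+) secrete P-factor and carry the receptor for M-factor, and M cells (h-) do the reverse. These genes are expressed weakly in rich medium and strongly once nitrogen runs out, under the transcription factor Ste11. Uptake of copper, iron, phosphate and sugars is set by transcription factors that sense each nutrient, and many sugar genes are repressed while glucose is plentiful.

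Counts on genes summed to 34843962 to 40328959 in the wild-type libraries, and 6232 genes were tested after a filter on low counts. Levels are given as CPM (library-size scaled counts) after TMM scaling over all 12 libraries, in the order of replicates 1, 2 and 3, and differences as log2 fold changes ± SE, positive where the h+ strain was higher. A gene was called at a fold change of at least 2 and a quasi-likelihood p from edgeR below 0.05 after Benjamini-Hochberg adjustment. The h- wild-type replicates lay close together: the chi-square of their counts, divided by its degrees of freedom, was 2.95 to 6.99 between pairs. In the h+ wild type this ratio was 29.6 and 38.5 for the pairs with replicate 1 and 13.7 for replicates 2 and 3, and replicate 1 was the library farthest from the others of its group at 3001 of 6232 genes (48.2%). For some of the results that rest on it, values without it are given as well. The genes that the study deleted or measured showed no detected difference between the wild types: TER1, the telomerase RNA, was at 159, 147 and 148 CPM in h+ and at 154, 159 and 151 CPM in h- (log2 fold change -0.03 ± 0.04), and thc1 (0.00052), bmc1 (-0.07), pof8 (-0.04) and trt1 (-0.03), subunits of its complex, also missed the test.

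Between the wild types 175 of 6232 genes were called (2.81%), 115 higher in h+ (1.85%) and 60 lower in h+ (0.963%). Sugar, copper, iron and phosphate genes and many non-coding transcripts were among them, while the defining genes of the mating types contributed a single call. At an adjusted p below 0.05 alone, 1382 genes were higher (22.2%) and 1201 lower (19.3%), so that small differences were widespread, and the median over all genes tested was 0.0017. For 112 of the 115 higher genes all h+ libraries lay above all h- libraries, and for each of the 60 lower genes they lay below. Such separation was found in 3572 of all 6232 genes (57.3%), and the calls were made on the same values. The call held whichever single library was left out for 114 of the 175 genes. Without h+ replicate 1 35 calls were lost, more than without any other single library.

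**Figure D1:**
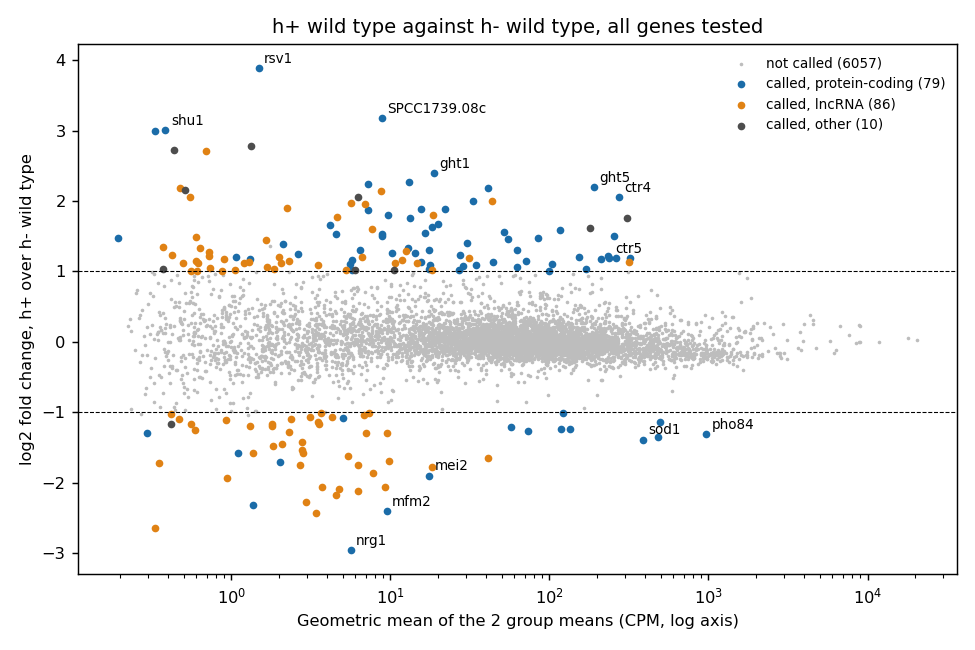
Log2 fold change (h+ over h- wild type) of the 6232 genes tested against the geometric mean of the 2 group means in CPM on a log axis; dashed lines mark the 2-fold limit and colours the 175 called genes by type. Called lncRNAs lie at lower levels (medians 1.92 CPM for higher and 3.55 CPM for lower) than called protein-coding genes (21.5 CPM), and rsv1 (3.89) and nrg1 (-2.95) mark the extremes.

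The sugar genes gave the most calls of any protein-coding list. The lists were chosen with earlier results of these data known, so this ranking is no independent support. Over all genes tested 1.85% were called higher, and 22.2% were higher at adjusted p below 0.05 alone. Of 11 glucose-repressed genes and regulators, 5 were called higher in h+ and none lower, with a list median of 0.78. Of the 8 hexose transporters, 2 were called higher, none lower, and the median was 0.76. Every gene of both lists had a positive log2 fold change, and 9 of the 11 and 6 of the 8 had an adjusted p below 0.05.

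rsv1 encodes a zinc finger transcription factor needed for survival in stationary phase. It was at 6.51, 5.10 and 5.57 CPM in h+ against 0.320, 0.600 and 0.237 CPM in h- (log2 fold change 3.89 ± 0.23, edgeR adjusted p = 9.58e-06). The h- values stood on 12, 22 and 9 reads, so the fold is imprecise, but the groups were far apart. Its neighbour in gene order, rbd3, was also called (2.24).

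gcd1, a glucose dehydrogenase of the gluconate shunt, was at 31.2, 25.7 and 29.1 CPM in h+ and at 5.62, 6.30 and 5.96 CPM in h- (2.27 ± 0.09). gld1, a glycerol dehydrogenase, was at 89.0, 72.7 and 101 CPM against 17.5, 20.5 and 20.01 CPM (2.18 ± 0.12). inv1, the secreted invertase that splits sucrose, was at 14.9, 14.1 and 25.2 CPM against 4.55, 5.65 and 5.43 CPM (1.80 ± 0.22). All 3 had every h+ library above every h- library. scr1, a repressor that acts when glucose is present, was also higher in h+, at 106, 98.0 and 71.0 CPM against 34.6, 31.9 and 33.2 CPM (1.46 ± 0.13). The gluconeogenic enzyme gene fbp1, a standard readout of glucose repression, did not reach the fold limit (0.78 ± 0.11, edgeR adjusted p = 0.000751).

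ght5, the main high-affinity glucose transporter, was at 444, 367 and 407 CPM in h+ and at 85.7, 90.2 and 90.9 CPM in h- (2.19 ± 0.07, edgeR adjusted p = 3.11e-07). ght1, a hexose transporter, was at 51.1, 35.3 and 43.1 CPM against 7.56, 8.13 and 8.96 CPM (2.39 ± 0.13). The other transporters differed less, among them ght4 (0.75 ± 0.07) and ght8 (0.42 ± 0.04). Outside the lists, and chosen after their values were seen, gti1, an inducer of gluconate transport (1.23), gut2, a mitochondrial glycerol-3-phosphate dehydrogenase (1.56), and gal10, a galactose pathway enzyme (1.09), were called higher as well. gal10 was not called without h+ replicate 1. Of 18 glycolysis and fermentation genes none was called, 3 were higher and 3 lower at adjusted p below 0.05, and the median was -0.0053. eno102, an enolase gene, was at 4.62, 4.75 and 7.79 CPM in h+ against 3.06, 3.90 and 3.53 CPM (0.71 ± 0.21). gpd3, a glyceraldehyde-3-phosphate dehydrogenase, was lower in h+ at 150, 103 and 104 CPM against 231, 236 and 220 CPM (-0.94 ± 0.12), reaching -1.14 and a call without h+ replicate 1.

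**Figure D2:**
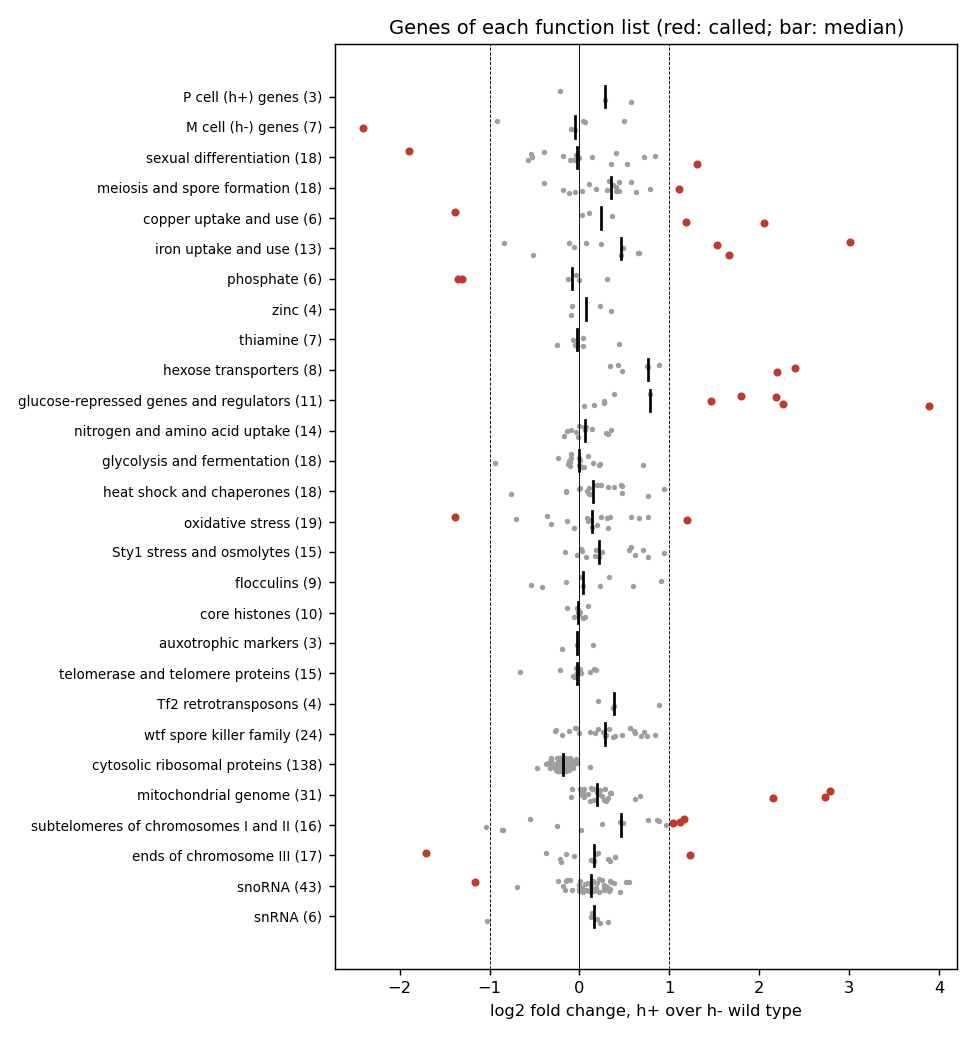
Log2 fold change (h+ over h- wild type) of the tested genes of each function list, with the number tested in parentheses; red points are called genes, black bars medians and dashed lines the 2-fold limit. The glucose-repressed and hexose transporter lists lie to the right of 0 as a whole (medians 0.78 and 0.76), and ribosomal protein genes lie just left of it (-0.18).

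The copper genes moved in both directions. ctr4 and ctr5 encode the subunits of the high-affinity copper transporter at the cell surface. ctr4 was at 607, 525 and 541 CPM in h+ and at 134, 139 and 131 CPM in h- (2.05 ± 0.06, edgeR adjusted p = 2.28e-07). ctr5 was at 339, 367 and 373 CPM against 163, 160 and 151 CPM (1.19 ± 0.05). sod1, the copper-zinc superoxide dismutase, went the other way, at 274, 232 and 215 CPM in h+ against 615, 659 and 614 CPM in h- (-1.39 ± 0.08, edgeR adjusted p = 6.98e-06). In all 3 genes the groups were well separated, with replicates within a narrow band. The vacuolar copper transporter ctr6 was higher by less than the fold limit (0.36 ± 0.05), and neither the copper regulator cuf1 nor ccs1, which loads copper onto the dismutase, passed an adjusted p below 0.05.

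Of 13 iron genes 3 were called higher and none lower, with a median of 0.46, where 1.85% of all genes tested were called higher. shu1, a surface protein for haem uptake, was at 1.44, 0.895 and 0.974 CPM in h+ and at 0.107, 0.191 and 0.105 CPM in h- (3.004 ± 0.35), the h- values being 4, 7 and 4 reads. str3, a transporter of the siderophore family, was at 12.2, 5.89 and 4.30 CPM against 2.24, 3.14 and 1.66 CPM (1.67 ± 0.39), with h+ replicate 1 well above the others. frp1, the ferric reductase, was at 16.1, 14.6 and 14.7 CPM against 5.99, 5.21 and 4.48 CPM (1.53 ± 0.10). Other iron genes were split below the fold limit: abc3 (0.66), str1 (0.65) and sib1 (0.48) were higher in h+, while fio1 (-0.83) and fip1 (-0.52), the oxidase and permease of reductive iron uptake, were lower, all at adjusted p below 0.05.

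Both of the called phosphate genes were lower in h+, where 0.963% of all genes tested were called lower. pho1, the secreted acid phosphatase, was at 388, 242 and 280 CPM in h+ and at 794, 751 and 773 CPM in h- (-1.35 ± 0.14). pho84, a phosphate transporter gene close to pho1 in gene order, was at 753, 524 and 561 CPM against 1557, 1515 and 1488 CPM (-1.31 ± 0.12). The groups did not overlap in either gene, and h+ replicate 1 was the nearest to the h- libraries in both. The other 4 genes of the list, including the transporter gene tgp1 and the regulator gene pho7, were not called.

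Over all genes tested 2.81% were called, so a small list may well hold no call. None was made among 4 zinc, 7 thiamine or 14 nitrogen and amino acid genes. Their medians were 0.07, -0.03 and 0.06, and the largest values were those of loz1 (0.35), the zinc-responsive repressor, nmt1 (0.44 ± 0.52), a thiamine synthesis gene, and isp4 (0.35), an oligopeptide transporter.

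**Figure D3:**
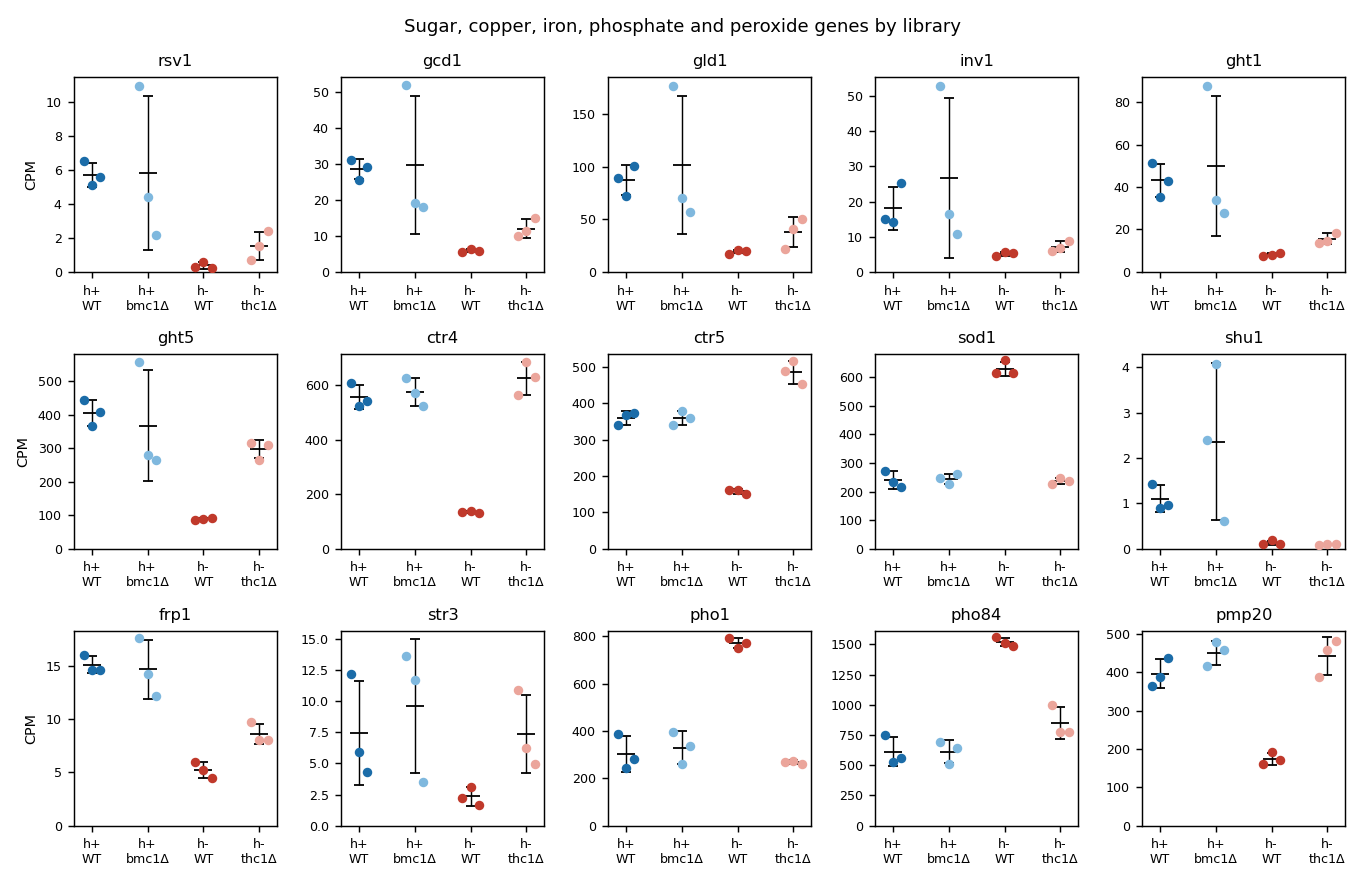
CPM of 15 sugar, copper, iron, phosphate and peroxide genes in each of the 12 libraries, 3 points per strain, with mean and SD in black on a linear axis from 0. For ctr4, ctr5, sod1, pho1 and pmp20 the h- wild type stands apart from the other 3 strains, thc1Δ included, while shu1 was low in both h- strains (0.0867 to 0.191 CPM) and higher in both h+ strains (0.607 to 4.07 CPM).

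Many stress genes differed, but seldom by 2-fold. Over all genes tested 2.81% were called, and at adjusted p below 0.05 alone 22.2% were higher and 19.3% lower. Of 19 oxidative stress genes, pmp20, a peroxiredoxin, was called higher in h+ at 365, 386 and 438 CPM against 160, 191 and 170 CPM (1.19 ± 0.08), and sod1 lower. In all 9 genes of that list were higher and 5 lower at adjusted p below 0.05, among them, below the fold limit, the catalase gene ctt1 (0.67 ± 0.08). In the list of the Sty1 stress kinase pathway and osmolytes, 9 of 15 genes were higher at adjusted p below 0.05 and none was called or lower. pyp2, the phosphatase that inactivates Sty1, was at 77.4, 80.9 and 87.6 CPM in h+ against 41.4, 45.7 and 41.4 CPM (0.94 ± 0.06), and ntp1, the neutral trehalase, at 207, 188 and 204 CPM against 118, 118 and 119 CPM (0.76 ± 0.04). The groups were clearly separated in both genes. The kinase target atf1 (0.62) and the trehalose synthase tps1 (0.55) were also higher by less than the limit.

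Of 18 heat shock and chaperone genes 10 were higher and 2 lower at adjusted p below 0.05, and none was called. Over all genes tested 22.2% were higher and 19.3% lower at that limit. hsp104, the disaggregase, was at 214, 248 and 261 CPM in h+ against 131, 119 and 127 CPM in h- (0.94 ± 0.07), and was called without h+ replicate 1 (1.02). psi1, a DnaJ-type chaperone, was at 135, 156 and 176 CPM against 92.7, 93.7 and 89.3 CPM (0.76 ± 0.08), while hsp16 was lower in h+ (-0.76 ± 0.21).

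The genes that define the mating types did not mirror the labels, except for mfm2. M-factor is encoded by mfm1, mfm2 and mfm3, and mfm2 was at 2.06, 8.63 and 1.54 CPM in h+ and at 20.6, 22.7 and 22.8 CPM in h- (-2.40 ± 0.46, edgeR adjusted p = 0.00371). All h+ libraries were below all h- libraries, but h+ replicate 2 stood well above the others of its group, and the log2 fold change was -3.61 without it. mfm1 had only 8 to 29 reads per wild-type library (-0.92 ± 0.36, edgeR adjusted p = 0.0675) and was called without h+ replicate 2 (-1.27) or h- replicate 1 (-1.15). mfm3 overlapped between the strains, at 1.47, 1.32 and 1.05 CPM against 1.12, 1.36 and 1.503 CPM. mam1, the M-factor exporter (-0.09), mam2, the P-factor receptor (0.04), and sxa2, the protease that degrades P-factor (0.06), did not pass the test, and the M cell agglutinin mam3 was higher in h+ (0.50 ± 0.10), at 53.4, 45.7 and 39.7 CPM against 31.2, 32.3 and 34.7 CPM.

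Of the P cell genes, map2, which encodes P-factor, was at 4.74, 4.65 and 4.54 CPM in h+ against 5.09, 5.54 and 5.64 CPM in h- (-0.22 ± 0.09, edgeR adjusted p = 0.0676). map3, the M-factor receptor (0.28 ± 0.06), and map4, the P cell agglutinin (0.57 ± 0.09), were higher in h+ below the fold limit. The summed level of the 3 P cell genes was 54.1 ± 3.69 CPM (SD, n = 3) in h+ and 41.6 ± 1.87 in h-, and that of the 7 M cell genes 157 ± 10.5 and 167 ± 1.498, each with an exact two-sided permutation p = 0.1, the smallest that 3 against 3 libraries can give. Without mfm2 the M cell sum was 153 ± 8.58 against 145 ± 0.497 (exact permutation p = 0.4). Both sets were thus detected in both strains. The M cassette genes of mat1 and mat3 (mat1-Mc, mat1-Mi, mat3-Mc and mat3-Mi) had no read in the h- wild type, which allows up to 3 counts per library, and 1 read in all in the h+ wild type. These cassettes exist in near-identical copies, and no source used here says how reads that match several places were counted, and the mating type of the strains could not be read from them.

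**Figure D4:**
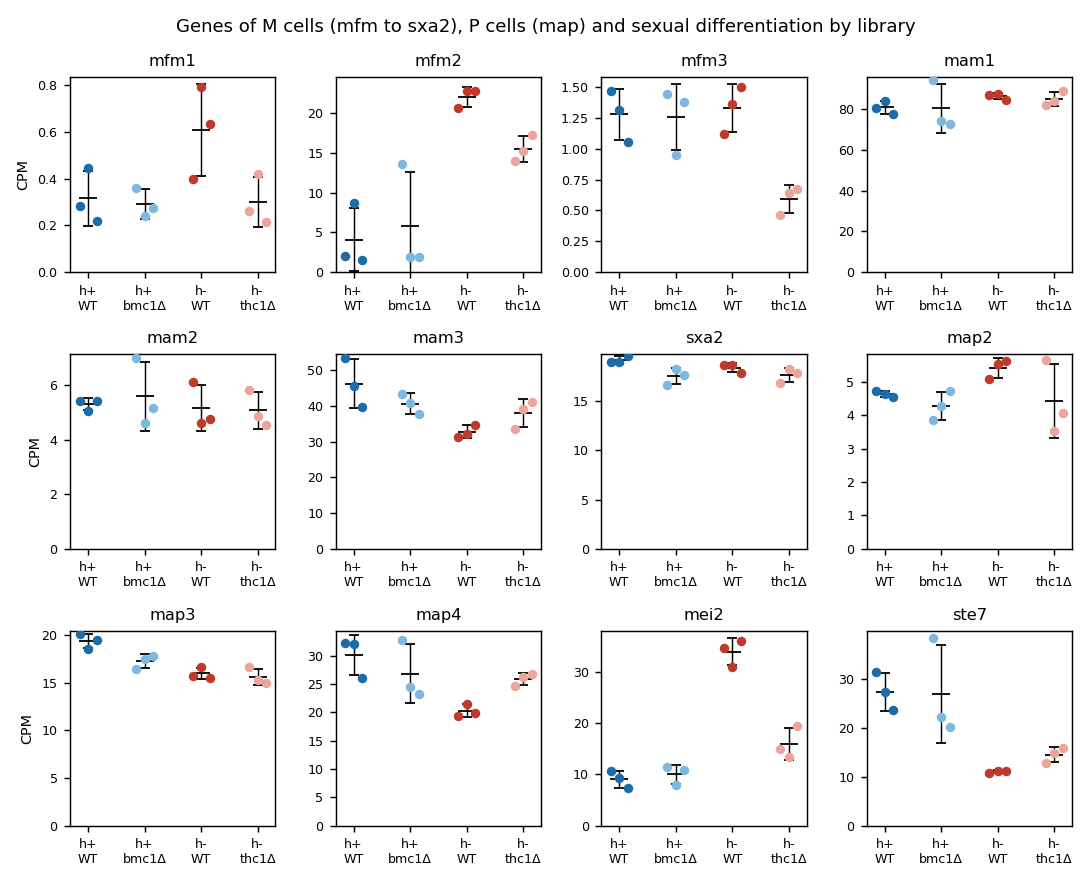
CPM of the M cell genes (mfm1 to sxa2), the P cell genes (map2 to map4), mei2 and ste7 in each library, 3 points per strain, with mean and SD in black on a linear axis from 0. mfm2 was lower in the h+ wild type (1.54 to 8.63 CPM) than in the h- wild type (20.6 to 22.8 CPM), and 1 bmc1Δ library (13.6 CPM) approached the thc1Δ libraries (13.9 to 17.2 CPM).

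Of 18 sexual differentiation genes 1 was called in each direction, where 2.81% of all genes tested were called. mei2, the RNA-binding switch into meiosis, was lower in h+ at 10.6, 9.35 and 7.30 CPM against 34.7, 30.96 and 36.0 CPM (-1.90 ± 0.12, edgeR adjusted p = 1.03e-05). ste7, which acts between mating and meiosis, was higher at 31.4, 27.2 and 23.6 CPM against 10.8, 11.2 and 11.2 CPM (1.31 ± 0.10). The master regulator ste11 was higher below the limit (0.71 ± 0.14). Of 18 meiosis and spore genes tested, listed as markers of cells that a growing haploid culture should not hold, 1 was called. It was spo6, a regulator of the second meiotic division, at 6.63, 8.95 and 8.92 CPM against 3.81, 3.82 and 3.82 CPM (1.10 ± 0.13). At adjusted p below 0.05, 10 were higher in h+ and none lower (median 0.35), where 22.2% of all genes tested were higher. The list was expressed in both strains, so its level does not by itself mark such cells. The summed level of the 19 genes of that list was 988 ± 10.5 CPM in h+ and 928 ± 6.22 CPM in h- (SD, n = 3, exact permutation p = 0.1). Its part in the other results was not tested.

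The marker genes matched the shared genotype in part. ura4, deleted by ura4-D18, had 1 read in the 6 wild-type libraries together and was not tested. leu1 (-0.20 ± 0.05) and ade6 (-0.03 ± 0.05) carry point alleles and were expressed in both strains, ade6 at 245, 217 and 226 CPM against 236, 236 and 233 CPM. his3 kept 17.1 to 20.4 CPM in the wild types (0.15 ± 0.06).

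Few genes at the chromosome ends had enough counts to be tested. Of the 30 annotated genes nearest each of the 4 ends of chromosomes I and II, 52 were in the deposited table and 16 were tested, 3 being called higher in h+ and none lower (median 0.47). SPAC212.04c was at 5.78, 9.89 and 10.1 CPM in h+ against 4.13, 3.44 and 4.01 CPM (1.16 ± 0.20). The non-coding SPNCRNA.287 (1.11 ± 0.33) and the pseudogene SPAC212.07c (1.03 ± 0.36) stood on 9 to 38 reads per library, and each lost its call when any library other than h+ replicate 1 was left out. At the ends of chromosome III, 17 genes were tested. SPCC569.02c was lower in h+ at 1.10, 1.07 and 1.19 CPM against 4.31, 2.97 and 3.72 CPM (-1.71 ± 0.17), and SPNCRNA.1299 was higher (1.23 ± 0.26), though not without h- replicate 3. Wider windows, chosen after the values were seen, were places 1 to 30, 31 to 60 and 61 to 100 of the gene order. The left end of chromosome II had 1, 3 and 4 genes called higher and none lower, of 1, 14 and 15 tested. Among them were SPBPB10D8.02c (2.00) and the pseudogene SPBPB10D8.03 (2.06) beside it. At places 61 to 100 the right end of chromosome II had 3 called lower and none higher of 19 tested. The left end of chromosome I had 3 higher and 1 lower of 16 there. Over all genes tested 2.81% were called. Genes of these repeated regions resemble each other, so their counts are uncertain.

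The repeated families showed no call, where 2.81% of all genes tested were called. At adjusted p below 0.05 alone 22.2% of all genes tested were higher and 19.3% lower. Of 13 Tf2 retrotransposon copies 4 were tested, with Tf2-11 at 26.7, 21.3 and 18.9 CPM in h+ against 12.4, 11.3 and 12.6 CPM (0.88 ± 0.12). None of the 24 tested genes of the wtf spore killer family was called, though 13 were higher at adjusted p below 0.05 (median 0.29, wtf18 at 0.84 ± 0.21), and wtf16 and wtf18 were each called without 1 library. Among 9 tested flocculins the largest value was that of pfl2 (0.91 ± 0.08). The core histones (median -0.01) and the telomere proteins (median -0.03, with ten1 at -0.67 and poz1 at -0.22) were not called either. None of the 138 cytosolic ribosomal protein genes was called, but 97 were lower in h+ and none higher at adjusted p below 0.05 (median -0.18), with rpp202 at -0.47 ± 0.07.

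Of 31 tested genes whose IDs mark them as mitochondrial, 3 were called higher and none lower (median 0.19). Over all genes tested 1.85% were called higher and 0.963% lower. The 3 mitochondrial genes were tRNA genes: SPMITTRNALYS.01 at 3.58, 4.33 and 2.60 CPM against 0.559, 0.300 and 0.659 CPM (2.78 ± 0.28), SPMITTRNASER.01 (2.73 ± 0.45) and SPMITTRNAMET.01 (2.15 ± 0.34), with 4 to 25 reads per h- library. Outside that list, and named after their values were seen, SPRRNA.01 and SPRRNA.02, the large and small mitochondrial ribosomal RNAs, were also called higher in h+. SPRRNA.02 was at 300.1, 414 and 228 CPM against 104, 111 and 92.2 CPM (1.62 ± 0.18), and SPRRNA.01 at 576, 745 and 375 CPM against 169, 172 and 159 CPM (1.77 ± 0.20). Ribosomal RNA was depleted before sequencing and tRNA is poorly captured by this kind of library, and the part of library making in these values was not tested. None of 6 snRNAs was called, snu5 having 3 to 23 reads (-1.02 ± 0.54). Of 43 snoRNA genes 1 was, SPNCRNA.906 (-1.17 ± 0.34), which lost its call when any library other than h+ replicate 1 was left out.

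Of 1125 long non-coding RNAs tested 44 were called higher and 42 lower (7.64%), against 62 and 17 of 4986 protein-coding genes (1.58%). The median over the tested lncRNAs was 0.02. Their levels were low: the median was 3.55 CPM for those called lower and 1.92 CPM for those called higher, against 21.5 CPM for called protein-coding genes, and low genes vary more.

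Among those higher in h+, SPNCRNA.100 was at 2.23, 1.69 and 1.38 CPM against 0.160, 0.327 and 0.316 CPM in h- (2.71 ± 0.29), SPNCRNA.679 at 21.9, 16.8 and 15.9 CPM against 4.26, 3.49 and 4.67 CPM (2.14 ± 0.15), and SPNCRNA.1223, next to inv1, at 0.789, 0.795 and 1.49 CPM against 0.0533, 0.245 and 0.369 CPM (2.18 ± 0.48). Among those lower, SPNCRNA.421 was at 0.0282, 0.174 and 0.189 CPM against 0.772, 0.873 and 0.896 CPM (-2.64 ± 0.38), with 1 read in h+ replicate 1. SPNCRNA.1340 was at 0.677, 1.96 and 1.73 CPM against 8.15, 8.13 and 7.67 CPM (-2.43 ± 0.25), and SPNCRNA.944 at 0.677, 2.44 and 3.25 CPM against 9.64, 8.95 and 10.4 CPM (-2.17 ± 0.34). In all of them the groups were separate, which was a condition for naming them and so is not a result. h+ replicate 1 was the lowest h+ library for 38 of the 42 lncRNAs called lower and the highest for 26 of the 44 called higher. The same counts were not made over all lncRNAs tested, so they show nothing particular to the called ones. Over all 6232 genes tested that library was the farthest of its group at 48.2%.

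Some called genes lay side by side. In gene order over the tested genes, 44 of the 168 called genes with a place in the annotation formed 18 runs of neighbours called in 1 direction. How many such runs this number of calls would give by itself was not worked out, so the count cannot be judged. lncRNAs that overlap each other on opposite strands, such as SPNCRNA.777 and SPNCRNA.778, make up part of some runs. The longest was SPNCRNA.777 to SPNCRNA.781 on chromosome I, all 5 lower in h+ by 1.48 to 2.11 on the log2 scale, SPNCRNA.779 being at 0.930, 4.25 and 3.73 CPM against 12.8, 12.8 and 13.5 CPM. Another joined the centromere protein gene cnp3 (-1.01), SPNCRNA.1672 to SPNCRNA.1674 and the origin-binding protein gene abp2 (-1.24) on chromosome II. abp2 was at 35.02, 104 and 91.6 CPM against 182, 173 and 190 CPM, and neither it nor cnp3 was called without h+ replicate 1. cnp3 also lost its call without any one of the h- replicates. Most lncRNAs overlap a gene on the other strand, 41 of the 44 called higher, 41 of the 42 called lower and 1034 of the 1111 tested with a place in the annotation (93.1%). No source used here says whether the counting used the strand, and without it reads of such partners cannot be told apart. Of 74 such pairs of a called lncRNA and a tested gene, both were called in 16, in the same direction in 11. Of the 78 tested genes opposite a called lncRNA 22 were called (28.2%), lncRNAs that overlap each other included, against 55 of the 1068 opposite any tested lncRNA (5.15%). Called lncRNAs that overlap each other are in the 22 by selection, and the 1068 include the 78, so the 2 shares cannot be compared.

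The extremes among protein-coding genes outside the lists were SPCC1739.08c, at 34.9, 19.5 and 25.2 CPM in h+ against 2.104, 3.60 and 3.08 CPM (3.18 ± 0.24), and SPAC29A4.22, with 1 to 7 reads per h- library (2.99 ± 0.41). At the other end nrg1 was at 0.564, 1.79 and 3.68 CPM in h+ against 15.8, 16.04 and 15.3 CPM (-2.95 ± 0.37), SPAPJ695.02 at 0.423, 0.671 and 0.730 CPM against 2.45, 3.87 and 2.85 CPM (-2.31 ± 0.24), and hpz2 at 0.705, 0.597 and 0.595 CPM against 2.05, 1.83 and 1.79 CPM (-1.58 ± 0.16). The groups were separate in every case, which was a condition for naming these genes and so is not a result.

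A second h+ against h- contrast was available in the deletion strains, bmc1Δ against thc1Δ, which shares no library with the first but holds the effects of both deletions. It had 72 calls among 6232 genes (1.16%), 48 higher in h+ (0.77%) and 24 lower (0.385%). These fell to 46 without thc1Δ replicate 2 and to 29 without thc1Δ replicate 3. Of the 175 genes called between the wild types, 33 were called there in the same direction, 23 higher and 10 lower, and 1, SPNCRNA.287, in the opposite direction (-1.42 ± 0.27). That was 18.9% of the wild-type calls and 45.8% of the deletion calls. The shared count fell to 21, 18 and 8 when thc1Δ replicate 1, 2 or 3 was left out. Between pairs of thc1Δ replicates the chi-square ratio was 20.8 to 68.9.

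Genes called in both contrasts included shu1, at 2.39, 4.07 and 0.607 CPM in bmc1Δ against 0.0867, 0.112 and 0.107 CPM in thc1Δ (4.47 ± 0.84, edgeR adjusted p = 0.0224), and SPCC1739.08c, at 64.6, 17.6 and 18.5 CPM against 3.96, 7.83 and 7.47 CPM (2.38 ± 0.55). ght1 (1.67 ± 0.42) and mug14 (1.94 ± 0.36) were among them. SPAPJ695.02 was at 0.334, 0.624 and 0.855 CPM in bmc1Δ against 5.00, 4.05 and 6.23 CPM in thc1Δ (-3.07 ± 0.30), and SPNCRNA.780 at 1.34, 3.42 and 3.39 CPM against 11.9, 8.70 and 9.38 CPM (-1.88 ± 0.31). A group of neighbours on chromosome I was also shared: SPAC11D3.15 (-1.27 and -1.09), SPAC11D3.19 (1.02 and 1.55) and the lncRNAs SPNCRNA.610 (1.97 and 1.56), SPNCRNA.611 (-2.08 and -1.50), SPNCRNA.612 (-1.01 and -1.08) and SPNCRNA.613 (-2.27 and -1.55), with values for the wild types first. Between the wild types SPAC11D3.19 and SPNCRNA.612 each lost the call without h+ replicate 1 and without h- replicate 1. Over all 12 libraries, 84 of the 175 genes had all 6 h+ libraries on 1 side of all 6 h- libraries, 56 above and 28 below, where 1043 of all 6232 tested genes did (16.7%). The 175 genes were called on the wild-type values, which form part of this condition, so the share over all genes is no fair reference.

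Other calls were not seen in the deletion strains. The difference between the 2 contrasts was fitted over all 12 libraries and added after the values were seen. It passed the same limits for 37 of the 175 genes and for 62 of all 6279 genes tested for it. The 175 genes were called on the wild-type difference, which is part of it, so the 2 counts cannot be compared. ctr4 was at 627, 573 and 524 CPM in bmc1Δ and at 563, 684 and 628 CPM in thc1Δ (-0.12 ± 0.09), so that the h- wild type alone was low (difference of the contrasts 2.17, adjusted p = 6.43e-07). ctr5 was higher in thc1Δ (489, 515 and 453 CPM) than in bmc1Δ (340, 378 and 360 CPM), and sod1 was at 225, 248 and 238 CPM in thc1Δ and 246, 228 and 262 CPM in bmc1Δ. The same held for pho1, at 269, 276 and 260 CPM in thc1Δ against 751 to 794 CPM in the h- wild type it was made from, for pmp20 (386, 459 and 480 CPM in thc1Δ) and for ght5 (317, 266 and 310 CPM in thc1Δ). Among the 175 genes the h- wild type lay outside the range of the 9 other libraries for 109, below for 65 and above for 44, where it did for 1124 of all 6232 tested genes (18%). Here too the calls were made on values that form part of the condition, so the 2 shares cannot be compared. Of the 109 genes, 37 were also among the 84 genes that separate all h+ from all h- libraries. For the rest the thc1Δ libraries, h- as well, did not all lie beyond the h+ libraries on the side of the h- wild type. For ctr5 they lay beyond them on the other side. Strain, culture and the thc1 deletion cannot be told apart.

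**Figure D5:**
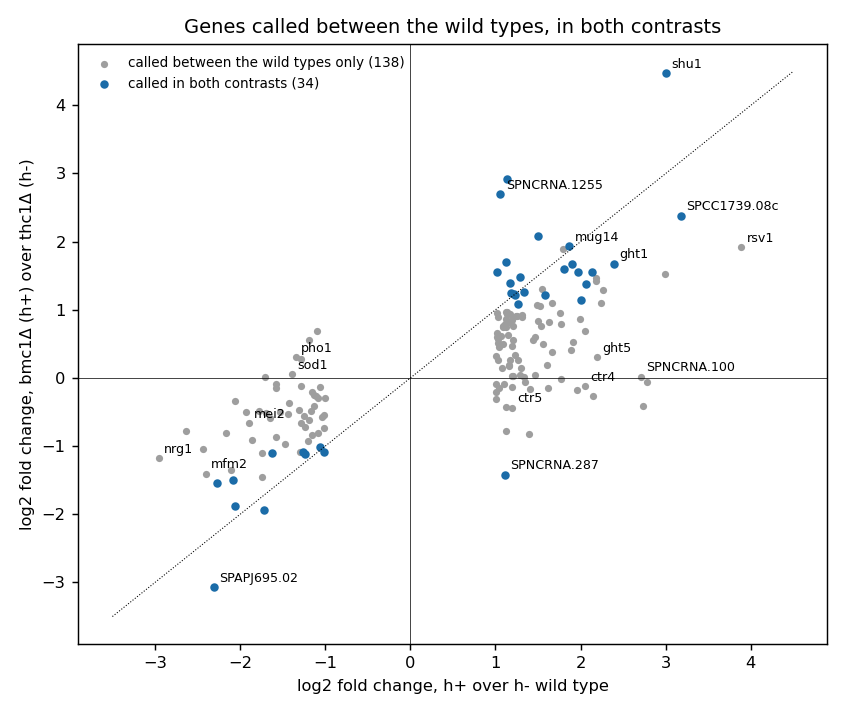
Log2 fold change between the wild types (x axis) against that between bmc1Δ and thc1Δ (y axis) for the called genes tested in both contrasts, which share no library; the dotted line marks equal values and blue points are called in both. shu1, ght1, SPCC1739.08c and SPAPJ695.02 lie away from 0 on both axes, ctr4, SPNCRNA.100 and sod1 lie near 0 on the y axis, and SPNCRNA.287 changes sign.

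The glucose-repressed genes lay between these cases. rsv1 was at 10.9, 4.40 and 2.18 CPM in bmc1Δ and at 0.694, 1.51 and 2.39 CPM in thc1Δ (1.92 ± 0.63, edgeR adjusted p = 0.0877), the replicates of each strain being spread. gcd1 (1.30 ± 0.41), gld1 (1.42 ± 0.46) and inv1 (1.89 ± 0.56) were likewise not called, with bmc1Δ replicate 1 the highest library for each. The list median was 0.84 between the deletions and 0.78 between the wild types. mei2 (-0.66 ± 0.18) and mfm2 (-1.41 ± 0.68) also kept their sign without a call, mfm2 being at 13.6 CPM in bmc1Δ replicate 1 and at 1.93 and 1.85 CPM in the others.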

How the data were processed

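The authors depleted RNA of ribosomal RNA, made stranded libraries, trimmed the reads, aligned them with STAR 2.5.2b to ASM294v2 and deposited whole-number counts per gene, not normalized. The counting tool, annotation and strand setting were not given in the sources used. Library totals were 33565122 to 40328959, and low genes are imprecise. Every column belonged to a labelled sample.

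Names, biotypes and gene order came from the RefSeq table of ASM294v3 (6846 IDs by locus tag, 15 by synonym, 143 without a match); because the builds differ, no coordinates or sequences were printed and the planned promoter search was not run. The tests were edgeR 4.0.16 (glmQLFit and glmQLFTest, TMM, filterByExpr with a minimum count of 10) in R 4.3.3, on the 6 libraries of a contrast, with Benjamini-Hochberg adjustment over all genes tested; SE is the log2 fold change divided by the square root of F. A call needed an adjusted p below 0.05 and a log2 fold change of 1 or more in size. The fits were tested on simulated data. Single sums were compared by exact permutation. The members and the 30 function lists were chosen with earlier results of these data known. Named genes were the mating-type and marker genes, up to 4 called genes with the largest values in each list (or, with none called, the 2 largest values), the 6 protein-coding and 6 non-coding genes with the largest separate rise and fall, TER1, thc1, bmc1, pof8 and trt1, and 5 genes called in both contrasts; other genes were named after their values were seen. Alternatives were DESeq2 1.42.0, limma-voom 3.58.1, RLE factors, other count filters, all 12 libraries, a replicate block, no mitochondrial or ribosomal RNA genes, no fold limit and leaving out each library. Figures used matplotlib 3.10.9.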

Additional observations from a re-analysis of the deposited data

Results flagged for a closer look

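The difference between the 2 contrasts (wild types minus deletions, log2, edgeR over all 12 libraries, adjusted p below 0.05 and at least 1 in size) was tested for the named genes after their values were seen. It was positive for SPMITTRNASER.01 (3.14), SPMITTRNALYS.01 (2.85), SPNCRNA.100 (2.69), SPNCRNA.287 (2.53), SPMITTRNAMET.01 (2.41), ctr4 (2.17), ght5 (1.89), ctr5 (1.62), his3 (1.40), spo6 (1.18) and pmp20 (1.16). It was negative for SPCC569.02c (-1.72), pho1 (-1.65), hpz2 (-1.49), sod1 (-1.44), thc1 (-1.32), ten1 (-1.28), mei2 (-1.24) and mfm3 (-1.14). thc1 and his3 are the gene removed and the gene inserted in thc1Δ. Over all 6279 genes tested 62 passed the same limits, and the cause of the other differences was not tested.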

How the results depend on the processing

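Between the wild types 159 to 189 genes were called when single libraries were left out, 170 by DESeq2, 172 by limma-voom, 191 with no count filter and 138 with a mean count of at least 50; with no fold limit 2583 were. Function-list members called, with the list of long non-coding RNAs left out (29), were 25 to 32 without single libraries and 269 with no fold limit. Between the deletions the 72 calls became 29 to 88 without single libraries (46 without thc1Δ replicate 2, 29 without replicate 3) and 661 with no fold limit, and the 33 calls shared by both contrasts became 8 to 38 and 342. Replicate numbers did not pair the libraries (correlations of deviations -0.066 to -0.046 in the wild types and -0.266 to -0.142 in the deletions); with a replicate block the counts were 175, 31 and 9. Of 44 named genes called, 40 held under every alternative that tested them, and none changed sign; SPAC212.07c, SPNCRNA.287, SPNCRNA.906 and SPNCRNA.1299 lost the call under at least 1. For 13 of the 44, shu1 and the mitochondrial tRNAs among them, the stricter filter or the removal of mitochondrial genes left no value. Some genes not called changed sign: thc1 with DESeq2 (-0.0025), RLE (-0.0026), all 12 libraries (-0.0015) and limma-voom (-0.00076), and without single libraries thc1 (-0.041 to 0.035), mam2 (-0.036 to 0.18), mfm3 (-0.16 to 0.065), trt1 (-0.053 to 0.017), ade6 (-0.078 to 0.0068) and nmt1 (-0.45 to 0.80). The cause was not tested. Depth limits the non-coding, subtelomeric and tRNA genes, many with under 50 reads per library.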
